A study of Homo sapiens with 12 samples.

Results

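The 10 chaperonin genes of human cells are described here in cultured multiple myeloma (MM) cells, untreated or exposed to withaferin A (WA). They comprise the 8 genes for the subunits of the cytosolic chaperonin TRiC (also called CCT), namely TCP1, CCT2, CCT3, CCT4, CCT5, CCT6A, CCT7 and CCT8, and the genes HSPD1 (HSP60) and HSPE1 (HSP10) of the mitochondrial chaperonin. Members were taken by gene symbol from the deposited table of raw counts, which holds 43735 entries. All 10 were found, and all 10 were among the 14085 genes that passed the filter on low counts, with at least 390 reads for any member in any library.

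RNA was sequenced from 12 cultures in 4 groups of 3: untreated MM1S, MM1S with WA, untreated MM1R and MM1R with WA. MM1S and MM1R are established MM cell lines derived from the same patient, of which MM1S is sensitive and MM1R resistant to glucocorticoids (GC). WA, a plant steroidal lactone that binds cysteines covalently, was given at 1 µM for 3 h according to the labels, and no vehicle is named for the untreated cells. Replicates differed in the number after P in the sample titles, 16, 22 and 23 for MM1S and 4, 6 and 7 for MM1R. This number was read here as passage, so that passage cannot be told apart from line. The labels do not say whether the passages of a line came from 1 culture series. An untreated and a WA culture existed for every passage, and the deviations of such a pair from their group means were correlated in all 6 pairs, so that a fit with passage as a block was run beside the unblocked one. All 9 plasma cell markers checked, among them SDC1, IRF4, PRDM1 and XBP1, had at least 39.7 CPM (counts per 1000000 counted reads, scaled by TMM) in every library, with a summed level of 9719.6 to 12745 CPM in the 6 MM1S and 12320.3 to 19184 CPM in the 6 MM1R libraries. Of 10 markers of other cells, COL1A2 had 0 reads in all libraries and none exceeded 25.7 CPM, and the summed level of these markers was 28.6 to 46.7 CPM. TUBB, DNAJA3, PFDN6 and PAM16, genes that cells generally use, were also listed at 0 in all libraries, so that a 0 in this table does not show that a gene was silent. Library totals lay between 17625110 and 19368343 reads. In RNA from whole cultures, fewer cells of a kind and less RNA per cell cannot be told apart.

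Chaperonins are barrels built of stacked rings that enclose a single unfolded protein and release it after rounds of ATP hydrolysis. TRiC has a ring of 8 different subunits, acts in the cytosol and is known for folding actins, tubulins and proteins with WD40 repeats, which it receives in part from prefoldin. In mitochondria, the HSPD1 protein forms the barrel and HSPE1 the lid that closes it over the client. The genes HSPD1 and HSPE1 lie head to head on a shared promoter, and heat shock factors bind inverted repeats of the unit GAA, called heat shock elements.

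With WA, the mitochondrial pair had the largest fold changes of the 10 genes, and the estimates for the TRiC subunits differed among themselves. HSPD1 rose 2.97-fold in MM1S and 3.17-fold in MM1R. HSPE1 was 2.04-fold and 2.44-fold higher, of which only the change in MM1R passed the test without passage as a block. TCP1 rose 1.5-fold in MM1S and 1.53-fold in MM1R. CCT4 and CCT6A rose 1.39-fold and 1.37-fold in MM1S, calls that were lost when some single libraries were left out. In MM1R these 2 genes were 1.28-fold and 1.27-fold higher, which did not pass this test but passed with passage as a block. CCT3 passed only with the block and only in MM1S, and CCT2, CCT5, CCT7 and CCT8 passed the test in neither line. No member differed between MM1R and MM1S by the test, untreated or with WA.

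Genomic positions are those of the GENCODE annotation on GRCh37. HSPD1 (ENSG00000144381) lies on the minus strand at chr2:198351308-198364564 with 12 exons, and HSPE1 (ENSG00000115541) starts 539 bases away on the plus strand at chr2:198365103-198368173 with 4 exons. TCP1 (ENSG00000120438) is at chr6:160199530-160210634, CCT2 at chr12:69979239-69995350, CCT3 at chr1:156278759-156308083 and CCT4 at chr2:62095220-62115791. CCT5 is at chr5:10250392-10266501, CCT6A at chr7:56119458-56131682, CCT7 at chr2:73461436-73480133 and CCT8 at chr21:30428647-30445969. The 8 TRiC genes thus lie on 7 chromosomes, with CCT4 and CCT7 on chromosome 2 together with HSPD1 and HSPE1.

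Promoter sequences of RefSeq (GRCh38.p14), running from 250 bases before to 50 bases after an annotated start, existed for 9 of the 10 members in 12 windows, and CCT6A had none. They were searched for GAANNTTC and TTCNNGAA, each of which reads the same on the other strand. Either motif occurred in 4 of the 9 members, and in 13.5% of all 35116 windows and 16.2% of the genes with a window. A run of 4 alternating units, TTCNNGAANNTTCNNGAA, was found in a window of HSPD1 alone among the members, and in 12 of all windows (0.0342%). It contains both 3-unit forms (GAANNTTCNNGAA and TTCNNGAANNTTC), which occurred in 0.49% of all windows and in no window of another member. The run lies at chr2:197500068-197500085, whereas the window of HSPE1 began at chr2:197500129, so that the search of HSPE1 did not cover it. The stretches with these matches are shown 5′ to 3′ on the strand of the gene, the matched motif in capitals, together with that of MRPL18, a gene for a protein of the mitochondrial ribosome that starts 865 bases from TCP1 on the other strand.
HSPD1, chr2:197500061-197500090 minus: gcattTTCTGGAAAGTTCTGGAAccgagcg
TCP1, chr6:159789814-159789843 minus: cgtttgaggcGAAGGTTCaacctcttccca
MRPL18, chr6:159789867-159789896 plus: attctagtgccTTCTAGAAaaggttgtaag
CCT2, chr12:69585789-69585818 plus: cccggagcgaaGAAATTTCtagtgtgggac
CCT4, chr2:61888607-61888636 minus: cccgacgccggcgccgctTTCTGGAAggtt

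Counted from the annotated start, the 4-unit run of HSPD1 began at position -245 of its second RefSeq window. The single pair of units began at position -231 in TCP1, at -89 in the second window of CCT2 and at 39 in CCT4. In MRPL18 the pair shown began at position 12 of its second window. The pair of TCP1, read on the other strand, was also a match in MRPL18 windows 1 and 2, at positions 15 and -41. Window 3 of MRPL18 held no match. Each of the 5 stretches had 1 exact match in GRCh37. The HSPD1 stretch matched at chr2:198364785-198364814, between the canonical starts of HSPD1 and HSPE1 and inside an exon of a longer HSPD1 transcript. The TCP1 stretch matched at chr6:160210846-160210875, inside an exon of an MRPL18 transcript. For MRPL18 the match was at chr6:160210899-160210928, 600 bases before its canonical start and inside an exon of another of its transcripts. The CCT2 stretch matched at chr12:69979569-69979598, 330 bases after the canonical start and inside a CCT2 exon of another transcript, so that it lay upstream only of the start of the second window. The CCT4 stretch, at chr2:62115742-62115771, lay in an exon of the canonical transcript. These matches describe letters in a window and do not show that a factor was bound.

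The 12 genes with the 4-unit run in a window included 3 tested genes, HSPD1, CHORDC1 and COMMD1, of which COMMD1 did not pass the test in either line (log2 fold change -0.10 in MM1R and 0.01 in MM1S). Of the 45 tested genes with a 3-unit form, 13 were called higher in each line (28.9%). Of the 1448 tested genes with GAANNTTC or TTCNNGAA, as in TCP1, CCT2 and CCT4, 10.1% were called higher in MM1R and 9.25% in MM1S. Whether a motif bears on the change with WA was not tested. For comparison, 7.73% of the 10403 tested genes with a window were called higher in MM1R and 6.43% in MM1S. HSPD1 itself is among these 45 genes.

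HSPD1 had 910.0, 962 and 1109.7 CPM in untreated MM1S of passages 16, 22 and 23, and 2669, 2587 and 3604 CPM in the WA cultures of the same passages. In MM1R of passages 4, 6 and 7 it had 726, 901 and 979.8 CPM untreated and 2059, 2515 and 3685 CPM with WA. The lowest WA culture of either line was thus above the highest untreated culture of both lines, and within each line the untreated and WA values did not overlap. The log2 fold change was 1.57 ± 0.20 (SE, n = 3 against 3) in MM1S with an adjusted p of 0.0003 by the quasi-likelihood test of edgeR with Benjamini-Hochberg adjustment. In MM1R it was 1.66 ± 0.20 with an adjusted p of 0.000188 by the same test. The change within a passage ranged from 1.43 to 1.91 on the log2 scale (CPM with 0.5 added), and passage 7 of MM1R and passage 23 of MM1S had the largest. HSPD1 ranked 248th in MM1S and 270th in MM1R among the 14085 genes ordered by log2 fold change. Reads of HSPD1 made up 0.0752% to 0.115% of all counted reads in untreated cultures and 0.213% to 0.352% with WA.

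**Figure D1:**
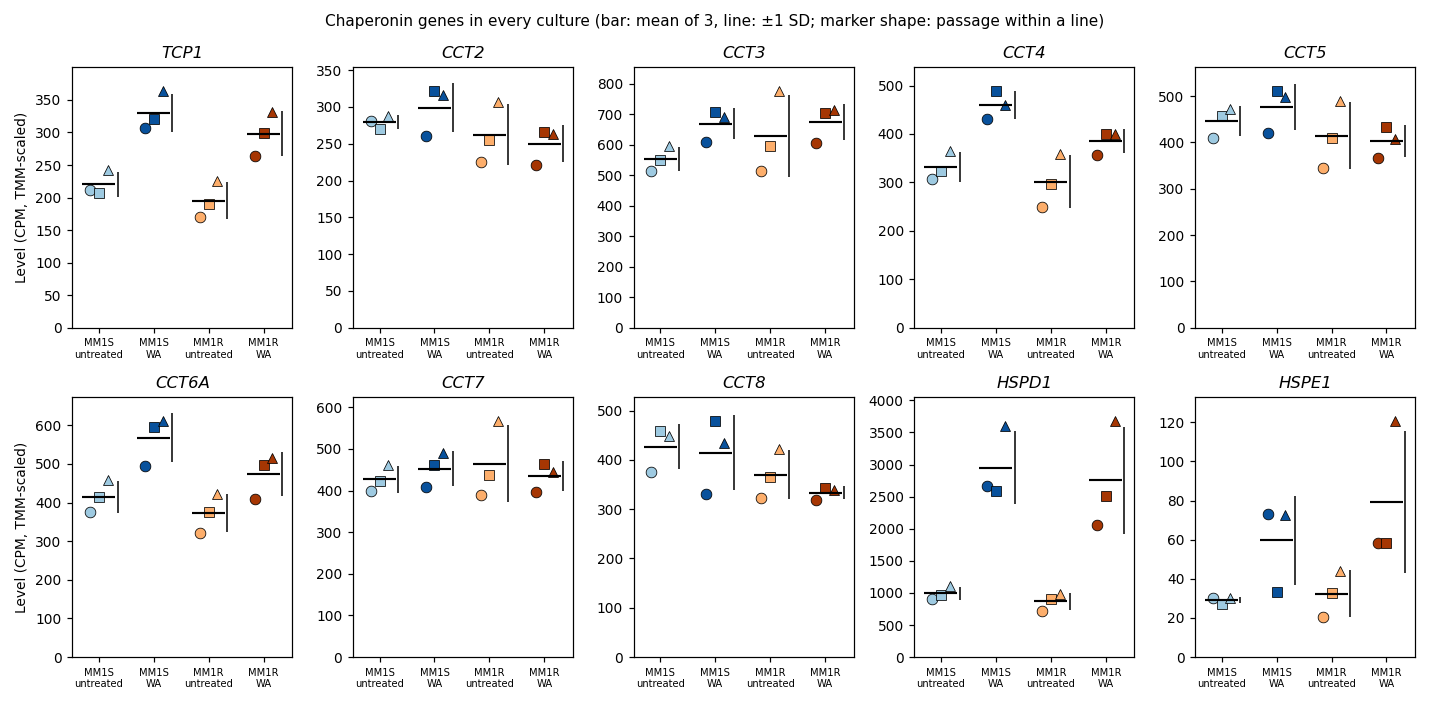
Level of each chaperonin gene (CPM scaled by TMM, linear axis from 0) in the 12 cultures, by line and treatment, with the mean of 3 cultures as a bar and ±1 SD as a vertical line, and with marker shapes for the passages of a line. HSPD1 was at 726 to 1109.7 CPM in the 6 untreated and 2059 to 3685 CPM in the 6 WA cultures, TCP1 was at 169 to 242 CPM and 263 to 364 CPM, and in untreated MM1R passage 7 was highest for all 10 genes.

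HSPE1, the lid of the mitochondrial chaperonin, was counted at much lower numbers. It had 30.3, 27.4 and 30.1 CPM in untreated MM1S of passages 16, 22 and 23, and 73.1, 33.3 and 72.4 CPM with WA. The WA culture of passage 22 thus stood close to the untreated cultures, although the groups did not overlap. The level in MM1R of passages 4, 6 and 7 was 20.3, 32.9 and 44.1 CPM untreated and 58.2, 58.5 and 121 CPM with WA, again with no overlap. All 6 pairs were higher with WA, by 0.28 (passage 22 of MM1S) to 1.5 on the log2 scale. The log2 fold change in MM1R was 1.29 ± 0.34 with an adjusted p of 0.0223 by edgeR, and in MM1S it was 1.03 ± 0.34 with an adjusted p of 0.0702. With passage as a block, the adjusted p was 0.00278 in MM1S and 0.000358 in MM1R. In MM1R the call was lost without untreated passage 4 (log2 fold change 1.04, adjusted p 0.0673), untreated passage 6 (1.28, 0.0762) or the WA culture of passage 7 (0.88, 0.104). In MM1S it passed the test without the WA culture of passage 22 (1.31, adjusted p 0.018) or, through the shared estimate of the spread, without the WA culture of passage 7 of MM1R (1.02, 0.0362).

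The counting bears on the level of HSPE1. Its canonical transcript is 557 bases long, of which 192 (34.5%) are shared on the same strand with exons of the readthrough gene HSPE1-MOB4, which was listed at 0 in all 12 libraries. The annotation names 26 pseudogenes after HSPE1 and 18 after HSPD1, none of which had an entry in the count table. Reads that map equally well to such copies are usually left out of counts per gene, and the part of this in the HSPE1 values was not tested. Among the other members, 454 of the 2352 bases of TCP1 (19.3%) are shared with ACAT2 on the opposite strand, for which no library had more than 638 reads.

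Whether the pair kept its proportion was examined with the ratio of HSPD1 to HSPE1 counts in each library, which needs no normalization. The ratio was 30.1, 35.1 and 36.8 in untreated MM1S of passages 16, 22 and 23, and 36.5, 77.8 and 49.8 with WA. In MM1R of passages 4, 6 and 7 it was 35.7, 27.4 and 22.2 untreated and 35.4, 43.0 and 30.5 with WA. It was higher with WA in 5 of 6 pairs, and untreated and WA values overlapped in both lines taken over passages. The mean difference of the log2 ratio was 0.49 (n = 6 against 6), with p = 0.035 in an exact two-sided permutation test of the treatment within each line (400 arrangements, smallest possible p 0.005). When the 6 pairs were kept together, flipping the sign of their differences gave an exact p of 0.0625 (smallest possible 0.0312). Without the WA culture of passage 22 of MM1S, in which HSPE1 was low, the difference was 0.35 with an exact p of 0.05. The difference lost its call in 7 further leave-outs, namely those of untreated MM1S passages 16, 22 and 23, untreated MM1R passages 6 and 7 and the WA cultures of MM1R passages 4 and 6 (exact p of 0.08, 0.065, 0.05, 0.07, 0.07, 0.06 and 0.075, respectively). The difference thus passed the test over cultures, but not the test over pairs of one passage, and not in 8 of 12 leave-outs.

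**Figure D2:**
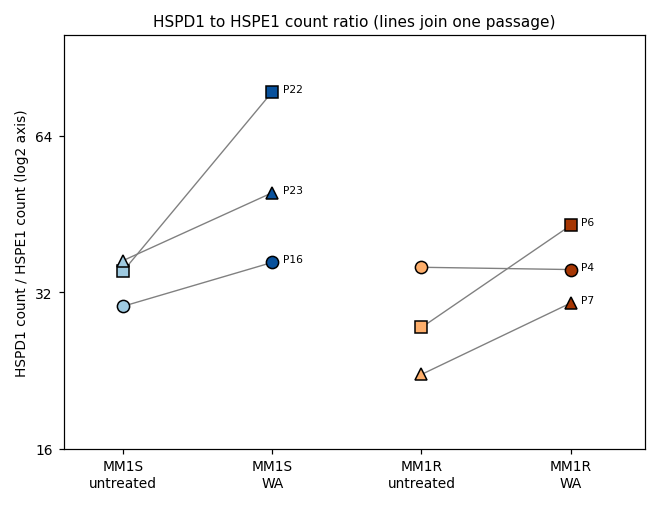
Ratio of HSPD1 to HSPE1 counts (log2 axis) in the 12 cultures by line and treatment, each grey line joining the untreated and WA culture of 1 passage. The ratio was higher with WA in 5 of 6 pairs, and the MM1S culture of passage 22 with WA stood apart at 77.8.

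TCP1 encodes the alpha subunit of TRiC. Its level was 212, 207 and 242 CPM in untreated MM1S of passages 16, 22 and 23, and 307, 320 and 364 CPM with WA. In MM1R of passages 4, 6 and 7 it was 169, 191 and 226 CPM untreated and 263, 299 and 332 CPM with WA. All WA cultures exceeded all untreated cultures of either line. Of the 10 members TCP1 had the narrowest range of change within a passage, 0.54 to 0.65 on the log2 scale over the 6 pairs. By edgeR the log2 fold change was 0.59 ± 0.13 in MM1S (adjusted p 0.012) and 0.61 ± 0.13 in MM1R (adjusted p 0.00765). In MM1S the adjusted p was 0.0656 without untreated passage 22 (log2 fold change 0.54) and 0.0586 without the WA culture of passage 23 (0.51).

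CCT4, the delta subunit, had 307, 324 and 365 CPM in untreated MM1S of passages 16, 22 and 23, and 430, 489 and 460 CPM with WA. In MM1R of passages 4, 6 and 7 it had 250, 296 and 358 CPM untreated and 357, 399.6 and 401 CPM with WA. The groups did not overlap in MM1S, whereas in MM1R the WA culture of passage 4 lay just under the untreated culture of passage 7. CCT4 was higher with WA in all 6 pairs, by 0.16 to 0.59 on the log2 scale. It rose in MM1S, with a log2 fold change of 0.47 ± 0.13 and an adjusted p of 0.0346 by edgeR. In MM1R the log2 fold change was 0.36 ± 0.13 with an adjusted p of 0.0829, and with passage as a block the adjusted p was 0.00732. Without untreated passage 7, CCT4 passed the test in MM1R (0.50, adjusted p 0.0286). In MM1S the call was lost in 7 of 12 leave-outs, with adjusted p of 0.109, 0.124 and 0.0556 without untreated passages 16, 22 and 23, of 0.0889 and 0.0922 without the WA cultures of passages 22 and 23, and of 0.0819 and 0.0501 without the untreated and the WA culture of passage 6 of MM1R.

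CCT6A, the zeta subunit, had 374, 414 and 458 CPM in untreated MM1S of passages 16, 22 and 23, and 495, 597 and 612 CPM with WA. The values in MM1R of passages 4, 6 and 7 were 322, 375 and 421 CPM untreated and 408, 498 and 516 CPM with WA. As for CCT4, only passage 4 of MM1R with WA fell below an untreated culture of its line. All 6 pairs were higher with WA, by 0.29 to 0.53 on the log2 scale. The log2 fold change was 0.45 ± 0.14 in MM1S, just past the limit with an adjusted p of 0.0494 by edgeR, and 0.35 ± 0.14 in MM1R with an adjusted p of 0.108. With passage as a block, the adjusted p was 0.000823 in MM1S and 0.00336 in MM1R. In MM1S the call was lost with only the 6 libraries compared (adjusted p 0.0663), with the size factors of DESeq2 (0.0638) and in 8 of 12 leave-outs. The adjusted p was then 0.153, 0.143 and 0.0755 without untreated passages 16, 22 and 23, 0.115 and 0.163 without the WA cultures of passages 22 and 23, and 0.104, 0.0672 and 0.0542 without, in MM1R, untreated passage 6 and the WA cultures of passages 6 and 7.

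CCT3, the gamma subunit, stood between these subunits and the rest. Its level was 514, 551 and 594 CPM in untreated MM1S of passages 16, 22 and 23 and 610, 706 and 692 CPM with WA, with no overlap. For MM1R of passages 4, 6 and 7 it was 512, 596 and 776 CPM untreated and 606, 702 and 714 CPM with WA, so that passage 7 was lower with WA and the groups overlapped. The log2 fold change of 0.28 ± 0.14 in MM1S did not pass the unblocked test (adjusted p 0.254 by edgeR) but passed with passage as a block (0.0312). In MM1R it was 0.10 ± 0.14 with an adjusted p of 0.707, and 0.316 with the block.

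For CCT2 (beta), CCT5 (epsilon), CCT7 (eta) and CCT8 (theta) the log2 fold change with WA lay between -0.04 and 0.10 in MM1S and between -0.15 and -0.04 in MM1R, with SE of 0.13 to 0.14 and adjusted p of 0.554 to 0.901 by edgeR. The 95% interval of the change was -0.18 to 0.38 for CCT2 in MM1S and -0.35 to 0.21 in MM1R. For CCT8 it was -0.46 to 0.16 in MM1R and -0.35 to 0.26 in MM1S. None of the intervals of these 4 genes reached a log2 fold change of 0.5 in size. CCT5 and CCT7 were higher with WA in 5 of 6 pairs and CCT2 in 3, whereas CCT8 was higher in 1 (passage 22 of MM1S). In passage 7 of MM1R all 4 genes were lower with WA, by 0.22 to 0.35 on the log2 scale. Without the untreated culture of that passage the log2 fold change in MM1R turned to 0.06 for CCT2, 0.09 for CCT5 and 0.07 for CCT7. The direction of these changes was therefore not determined.

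In MM1R, 3 of the 10 members were called higher with WA (TCP1, HSPD1 and HSPE1), beside 7.55% of all tested genes. In MM1S, 4 of 10 were called higher (TCP1, CCT4, CCT6A and HSPD1), beside 6.25% of all tested genes. No member was called lower, beside 6.46% and 4.23% of all genes, respectively. With passage as a block, 5 members were called higher in MM1R (with CCT4 and CCT6A in addition) beside 14.7% of all genes, and 6 in MM1S (with CCT3 and HSPE1 in addition) beside 12.5%. Over all genes, scaling by library totals moved the calls from 1063 higher and 910 lower to 914 and 1174 in MM1R, and from 880 and 596 to 692 and 885 in MM1S. Among the TRiC subunits alone, 1 of 8 was called in MM1R and 3 of 8 in MM1S, or 3 and 4 of 8 with the block. The median log2 fold change of the 8 subunits was 0.19 in MM1S and 0.03 in MM1R, against 0.01 for all tested genes in each line. HSPD1 and TCP1 in MM1R and HSPD1 in MM1S passed the test under each of the 20 alternatives run, whereas the count of members called in MM1S ranged from 1 to 4 when each library was left out in turn (1 without untreated passage 22 or the WA culture of passage 23).

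**Figure D3:**
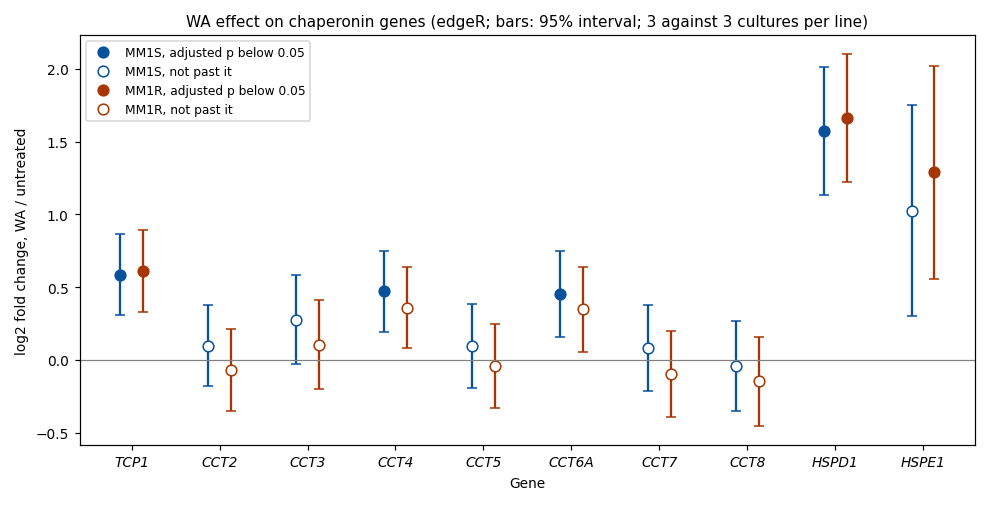
Log2 fold change of WA against untreated for the 10 chaperonin genes in MM1S and MM1R (3 against 3 cultures per line), with 95% intervals from the edgeR fit and filled symbols for an adjusted p below 0.05. HSPD1 lay at 1.57 and 1.66 and TCP1 at 0.59 and 0.61, whereas CCT2, CCT5, CCT7 and CCT8 lay between -0.15 and 0.10.

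The make-up of the TRiC reads was taken as the share of each subunit among the counts of the 8 genes in a library. Since these shares sum to a whole, a rise of some lowers others, and they are given without a test. TCP1 made up 6.81% ± 0.42 (SD, n = 6) of TRiC counts untreated and 9.09% ± 0.54 with WA. CCT4 went from 10.3% ± 0.43 to 12.2% ± 0.58 and CCT6A from 12.9% ± 0.66 to 15.0% ± 0.67. Each of these 3 shares was higher with WA in 6 of 6 pairs, and untreated and WA cultures did not overlap over both lines.

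CCT2 went from 8.89% ± 0.44 to 7.91% ± 0.29, CCT5 from 14.1% ± 0.41 to 12.7% ± 0.42, CCT7 from 14.6% ± 0.95 to 12.9% ± 0.66 and CCT8 from 13.1% ± 1.00 to 10.8% ± 0.93. These 4 shares were lower with WA in 6 of 6 pairs, without overlap for CCT2 and CCT5. The share of CCT3 differed by line: it lay between 17.8% and 18.7% in the 6 MM1S libraries and between 20.2% and 21.8% in the 6 MM1R libraries. CCT7 was likewise higher in untreated MM1R (14.9% to 15.9%) than in untreated MM1S (13.6% to 13.9%). Since the lines shared no passage, line and passage cannot be told apart here.

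**Figure D4:**
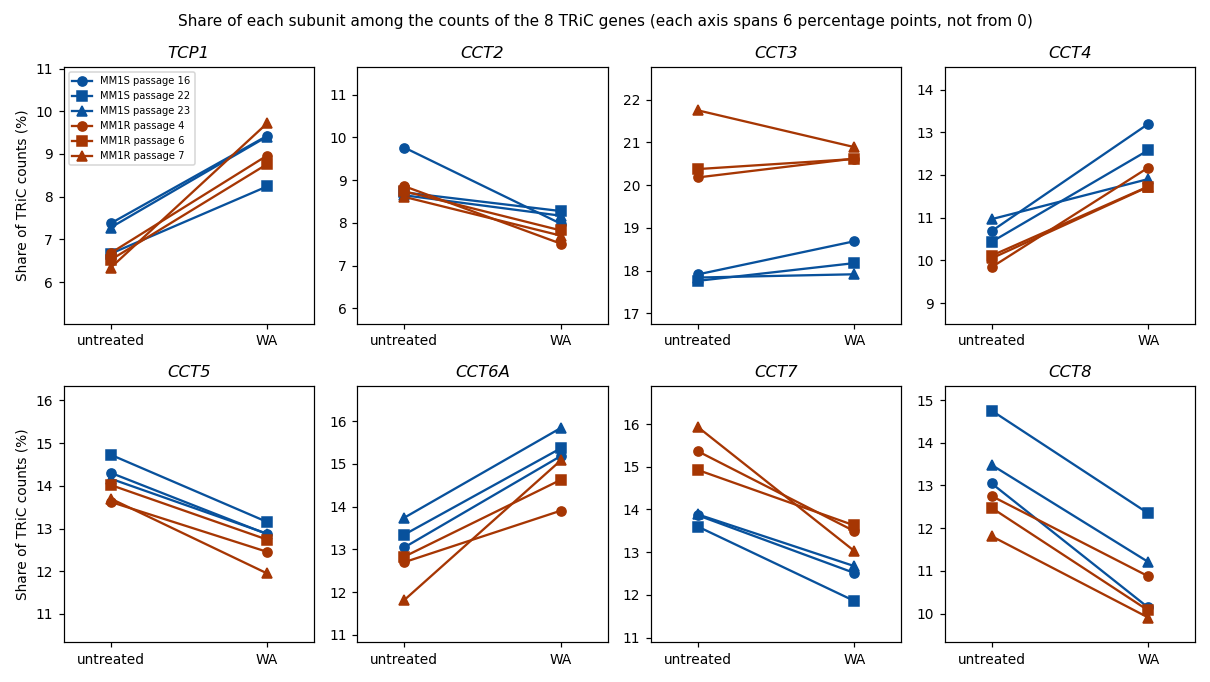
Share of each TRiC subunit among the counts of the 8 TRiC genes (percent; each panel spans 6 percentage points and does not start at 0), with a line for each pair of an untreated and a WA culture of 1 passage. TCP1, CCT4 and CCT6A were higher and CCT2, CCT5, CCT7 and CCT8 lower with WA in 6 of 6 pairs, and the CCT3 shares of MM1R (20.2% to 21.8%) and MM1S (17.8% to 18.7%) did not overlap.

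Levels were compared between genes only after division by the length of the canonical transcript (CPM per kilobase). HSPD1 was the highest of the 10 in all groups, at 443 ± 46.1 (SD, n = 3) CPM per kilobase in untreated MM1S, 387 ± 58.0 in untreated MM1R, 1316 ± 252 in MM1S with WA and 1226 ± 374 in MM1R with WA. It stood at 2.12 to 2.60 times the mean of the 8 TRiC subunits in untreated cultures and at 5.24 to 8.44 times that mean with WA. CCT3 was the highest TRiC subunit in all 12 libraries (279.7 ± 20.3 CPM per kilobase in untreated MM1S, 318 ± 68.1 in untreated MM1R). In untreated MM1S, CCT7 (231 ± 17.7) and CCT8 (230.3 ± 24.7) came next and did not differ beyond their spread.

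CCT6A (161 ± 16.1 in untreated MM1S), CCT2 (146 ± 4.64), CCT4 (139.6 ± 12.7) and CCT5 (136 ± 9.72) followed, and neighbours among these 4 differed by less than the larger of their SDs. TCP1 was lowest of the subunits in all 6 untreated libraries, at 93.6 ± 8.21 CPM per kilobase in MM1S and 83.0 ± 12.1 in MM1R. With WA it reached 140.5 ± 12.5 and 127 ± 14.7, and CCT5 took the lowest place in 4 of the 6 WA libraries. Both places rest on 1 canonical length per gene (2352 bases for TCP1, 3293 for CCT5), and TCP1 shares exon bases with ACAT2. The part of either in these places was not tested. The highest subunit stood 2.89 to 4.09 times above the lowest in untreated and 2.32 to 2.91 times in WA cultures. HSPE1 had 36.5 to 79.1 CPM per kilobase in untreated and 59.7 to 217 in WA cultures, a level that its shared exon and copies can affect. Per kilobase, HSPD1 exceeded it 5.52 to 19.3 times.

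Whether the lines differed in chaperonin levels was asked for untreated cells and for cells with WA. When a log2 difference of at least 1 in either direction and an adjusted p under 0.01 were required, 0 of 10 members were called by edgeR in untreated cells, beside 2.97% of all tested genes, and 0 of 10 with WA, beside 3.04%. At an adjusted p of 0.05 with no limit on the fold change, 0 of 10 were called in either comparison, beside 11.9% and 12% of all genes. At an unadjusted p of 0.05 by edgeR, 0 members passed in untreated cells and 1 (CCT8) with WA. Of all 14085 tested genes, 3673 and 3955 passed this limit, respectively, when edgeR was run with the size factors of DESeq2. Without the WA culture of MM1S passage 16, CCT8 passed the adjusted limit of 0.05 with WA (log2 difference -0.46, adjusted p 0.0276 by edgeR). Log2 differences of MM1R against MM1S in untreated cells lay between -0.21 (CCT8) and 0.18 (CCT3), with SE of 0.13 to 0.34. With WA they lay between -0.31 (CCT8, 95% interval -0.62 to -0.01, adjusted p 0.171) and 0.41 (HSPE1, 95% interval -0.30 to 1.12). For HSPD1 the 95% interval was -0.62 to 0.23 in untreated cells and -0.53 to 0.33 with WA, and for TCP1 it was -0.45 to 0.11 and -0.43 to 0.13. The spread within untreated MM1R was wide, with passage 7 highest and passage 4 lowest for all 10 members. For CCT3 the coefficient of variation was 21.4% in untreated MM1R and 7.25% in untreated MM1S.

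The difference between the lines in the WA effect was tested as an interaction. By edgeR 0 of 10 members were called, beside 0.0% of all genes at an adjusted p of 0.05. At an unadjusted p of 0.05, 0.689% of all genes (97) and 0 members passed, and DESeq2 called 1 gene in all, or 6 with the block, none of them a member. The difference (MM1R minus MM1S) was 0.09 for HSPD1 (95% interval -0.51 to 0.70), 0.02 for TCP1 (-0.37 to 0.42) and 0.26 for HSPE1 (-0.76 to 1.28). For the 8 subunits it lay between -0.18 and 0.02 with SE of 0.18 to 0.20. Differences within these intervals were not excluded with 3 cultures per group.

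Genes whose start lies within 1000 bases of a member's start were examined as well. MRPL18, next to TCP1, rose with WA by a log2 fold change of 1.46 ± 0.21 in MM1S (adjusted p 0.000654 by edgeR) and 1.60 ± 0.21 in MM1R (adjusted p 0.000312). Its level was 50.4, 53.8 and 55.1 CPM in untreated MM1S of passages 16, 22 and 23 and 155, 108 and 174 CPM with WA. In MM1R of passages 4, 6 and 7 it was 46.4, 55.2 and 61.7 CPM untreated and 127, 142 and 226 CPM with WA, with no overlap in either line. MRPL18 and HSPE1 thus shared the low WA culture of passage 22 of MM1S and the high WA culture of passage 7 of MM1R. TSACC (234 bases from CCT3), ATPSCKMT (392 bases from CCT5) and PSPH (321 bases from CCT6A) passed the test in neither line, with log2 fold changes in MM1S and MM1R of -0.39 and -0.20, 0.46 and 0.20, and 0.62 and 0.82, respectively. PSPH, an enzyme of serine synthesis, was higher with WA in 5 of 6 pairs, with 69.7 CPM in the untreated and 59.9 CPM in the WA culture of passage 22 of MM1S.

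Over the 12 libraries, the 5 genes outside the members whose mean-centred log2 CPM lay closest to that of HSPD1 were HSP90AB1, FKBP4, MRPL18, HSD17B7 and ANLN. The root mean square difference was 0.15 for HSP90AB1 and 0.20 for ANLN, against 0.44 for HSPE1, 0.52 for TCP1 and a median of 0.89 over all tested genes. HSP90AB1 is a constitutive cytosolic HSP90 and FKBP4 one of its co-chaperones. The 5 genes were picked as the closest of all tested genes outside the members, and HSPE1, with its lower counts, has a larger counting error, so that nothing is read from the order of these distances. Closest to the mean of the 8 TRiC subunits were SKP1, HSPA9, PEX19, DYNLL2 and UBE2A, with differences of 0.05 to 0.07 against a median of 0.36. HSPA9 is the HSP70 of mitochondria, whose log2 fold change with WA was 0.21 in MM1S and 0.06 in MM1R. All libraries share one scaling, and closeness of this kind is a description of 12 libraries.

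**Figure D5:**
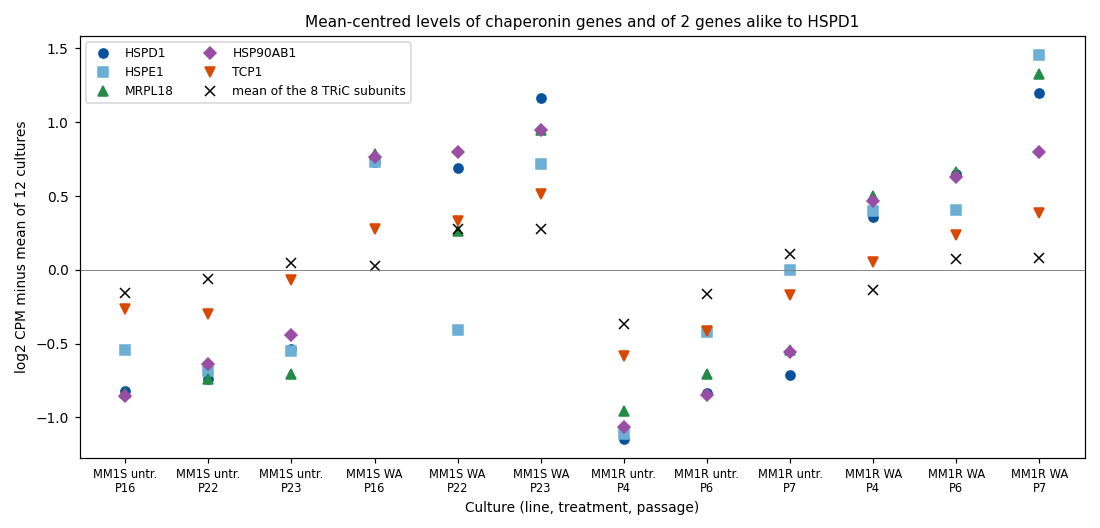
Log2 CPM minus its mean over the 12 cultures for HSPD1, HSPE1, TCP1, the mean of the 8 TRiC subunits, MRPL18 and HSP90AB1, with a point for each culture. Points of HSPD1 and HSP90AB1 lay close together (root mean square difference 0.15), while the TRiC mean moved little and HSPE1 was low in the MM1S culture of passage 22 with WA.

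Other genes of the chaperonin pathways were described by lists. Of 12 cofactors of TRiC (prefoldin, its relatives and phosducin-like proteins), 11 were tested. In either line 0 were called higher, beside 7.55% of all genes in MM1R and 6.25% in MM1S. In MM1R 3 were called lower, PDCL3 (log2 fold change -0.64), PDCL (-0.49) and URI1 (-0.37), beside 6.46% of all genes, and in MM1S 0, beside 4.23%. With passage as a block 4 were called lower in MM1R, beside 14.4% of all genes, and 3 in MM1S, beside 11.7%, where PDCL3, URI1 and PFDN2 had log2 fold changes of -0.50, -0.32 and -0.55. The prefoldin subunits VBP1 and PFDN5 had the smallest values of the list, between -0.08 and 0.06. The median of the list was -0.11 in MM1R and -0.08 in MM1S, against 0.01 for all genes.

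Of 6 relatives of the chaperonins, 4 were tested and 0 were called in either line. Of all genes, 7.55% were called higher and 6.46% lower in MM1R, and 6.25% and 4.23% in MM1S. Among the 4 were MKKS (-0.08 in MM1R, 0.00 in MM1S) and BBS10 (-0.10 and -0.07), which belong to a chaperonin-like complex of cilia. With the block, edgeR called 1 higher in MM1S, BBS12 (0.63, at a mean of 3.08 CPM), beside 12.5% of all genes. DESeq2 with the block called 0. HSPE1-MOB4 and CCT8L2 had 0 reads in all libraries.

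Of 18 mitochondrial chaperones and proteases besides HSPD1 and HSPE1, 16 were tested. In either line 0 were called higher, beside 7.55% of all genes in MM1R and 6.25% in MM1S. One protease, HTRA2 (-0.40), was called lower in MM1R, beside 6.46% of all genes. The median was -0.01 in MM1R and 0.03 in MM1S, against 0.01 for all genes, and GRPEL1 (0.03 and 0.07), the exchange factor of mitochondrial HSP70, and the protease YME1L1 (-0.05 and -0.02) had the smallest changes. With the block, 5 were called lower in MM1R and 4 in MM1S, beside the shares of all genes given above. TRAP1, CLPB and CLPP were called in both lines (log2 fold changes of -0.26 to -0.39), AFG3L2 and HTRA2 in MM1R and DNLZ in MM1S. The genes named for the block alone, here and in the preceding lists, were chosen after their values were seen.

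Of 19 known clients of TRiC 18 were tested. In MM1R 2 were called higher and 3 lower, beside 7.55% and 6.46% of all genes, and in MM1S 2 higher and 4 lower, beside 6.25% and 4.23%. The tubulins TUBA1A (1.22 in MM1R, 1.06 in MM1S) and TUBB2A (0.71 and 0.77) rose, at mean levels of 36.2 and 4.43 CPM. Tubulins with more reads did not share this direction: TUBG1 (136 CPM), the gamma-tubulin gene, fell (-0.53 and -0.52), and TUBA1B (1874 CPM) and TUBB4B (437 CPM) had log2 fold changes of -0.64 and -0.49 in MM1R, which passed the test only with the block (adjusted p by edgeR 0.00095 and 0.032), and of -0.26 and -0.32 in MM1S. The actin genes ACTG1 (3657 CPM) and ACTB (5422 CPM) had log2 fold changes of 0.46 and 0.18 in MM1S and -0.22 and -0.25 in MM1R. Neither passed the test without the block, and ACTG1 passed with it in MM1S (adjusted p by edgeR 0.013). These 3 tubulins and the actins were chosen after their values were seen. CCNE1, the cyclin E1 gene (-1.32 and -0.98), and FZR1, an activator of the anaphase-promoting complex (-0.63 and -0.49), fell. GNB1 and STAT3 had the smallest changes, between -0.03 and 0.06. The median of the list was -0.28 in MM1R and -0.09 in MM1S. With the block, 2 were called higher and 8 lower in MM1R, beside 14.7% and 14.4% of all genes, and 3 higher and 6 lower in MM1S, beside 12.5% and 11.7%.

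All 14 cytosolic heat shock genes on the list were tested and called higher in each line. Of all tested genes, 6.25% were called higher in MM1S and 7.55% in MM1R. The median log2 fold change of the list was 1.83 in MM1S and 1.89 in MM1R. The largest were DNAJB1 (4.91 in MM1S, 5.40 in MM1R), BAG3 (4.55 and 5.21), HSPB1 (4.06 and 4.06) and HSP90AA1 (3.51 and 3.69). The smallest were STIP1 (1.18 and 1.06) and AHSA1 (0.98 and 0.98), co-chaperones of HSP90, whose values lay above that of TCP1, the highest of the TRiC subunits. HSPD1 lay below the median of this list in both lines. The list was drawn up with earlier results of these data known, and its counts stand as a description.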

How the data were processed

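RNA from 12 cultures was sequenced, 3 in each of 4 groups set by cell line and treatment in the labels. The authors mapped reads to hg19 with STAR (version 2.7.3a, quality control with FastQC 0.11.5, per the submitters' processing notes) and deposited raw counts of reads per gene. The annotation and strand setting of the counting are not given in the sources used here. A second deposited table, of normalized values, was not used. The 10 members, the lists and the tests were chosen with earlier results of these data known.

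Genes were kept by filterByExpr (minimum count 10), which left 14085 of 26497 with a read, and libraries were scaled by TMM. The quasi-likelihood test of edgeR 4.0.16 (R 4.3.3) was fitted over all 12 libraries, with Benjamini-Hochberg adjustment over all tested genes. WA and interaction calls used an adjusted p of 0.05, while line comparisons also required a log2 difference of 1 and an adjusted p of 0.01 (0.05 and no such limit beside it). Intervals of 95% used the moderated degrees of freedom. Named were all members, neighbours within 1000 bases, the 5 most alike genes, and from each list up to 4 called genes with the largest and 2 with the smallest mean absolute log2 fold change with WA.

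Passage pairs the cultures: the untreated and WA culture of a passage deviated together from their group means, with correlations over genes of 0.39 (MM1R passage 4), 0.18 (6), 0.22 (7), 0.71 (MM1S passage 16), 0.25 (22) and 0.44 (23). For MM1S passage 22 the pairing was not specific, since its untreated culture correlated at 0.31 with the WA culture of passage 23 and its WA culture at 0.37 with the untreated one. Counts of the 12 pairs of replicates gave a chi-square of 8.36 to 47.1 per degree of freedom, so that all libraries were treated as separate. The paper calls the 3 samples of each line and treatment biologically independent. How the passages of a line were derived is not stated, and p-values measure the spread between these cultures. Reads carried no molecular identifiers. On simulated counts with 200 genes changed 3-fold, edgeR recovered 97% of them for WA in MM1R (of 13819 genes tested) and 97% for WA in MM1S (of 13845), with 3.5% and 7.2% of its calls false. DESeq2 recovered 97% and 98.5%, with 12.2% and 15.1% false. The simulation changed only genes above a set mean count and held no passage pairs. Recovery of changes as small as those of the TRiC subunits was not tested. Alternatives were DESeq2 1.42.0 and its size factors, other filters, passage as replicate block, only the 6 libraries compared, other limits, and each library left out in turn. Scaling by library totals was added after seeing the data.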

Additional observations from a re-analysis of the deposited data

How the results depend on the processing

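With passage as replicate block, 5 members were called in MM1R with edgeR and with DESeq2, and 6 in MM1S. At an adjusted p of 0.01, 1 member was called in MM1S. Leaving out each library gave 2 to 4 called members in MM1R, 1 to 4 in MM1S and 0 in the interaction and, at an adjusted p of 0.01 with a log2 difference of 1, in the line comparisons. At an adjusted p of 0.05, CCT8 passed between lines with WA without the WA culture of MM1S passage 16 (-0.46, adjusted p 0.0276). The HSPD1 to HSPE1 log2 ratio differed by 0.35 to 0.62 when libraries were left out. It differed by 0.62 in MM1S alone (exact permutation p 0.2) and 0.36 in MM1R alone (0.3), where no p below 0.10 can be had, and with sign flips over the pairs (replicate block) by 0.49 with an exact p of 0.0625. Besides CCT4 and CCT6A in MM1R and CCT3 and HSPE1 in MM1S, no member's call changed with the block.

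Directions of uncalled members turned when single libraries were left out. The log2 fold change with WA in MM1R then ranged from -0.17 to 0.056 for CCT2, -0.03 to 0.28 for CCT3, -0.16 to 0.090 for CCT5 and -0.21 to 0.073 for CCT7, and in MM1S from -0.16 to 0.10 for CCT8. Between untreated lines it ranged from -0.22 to 0.0096 for CCT2, -0.24 to 0.0095 for CCT5, -0.050 to 0.23 for CCT7 and -0.14 to 0.40 for HSPE1. Between lines with WA it ranged from -0.057 to 0.081 for CCT3, -0.13 to 0.0054 for CCT7, -0.34 to 0.069 for HSPD1 and -0.0056 to 0.60 for HSPE1. The interaction ranged from -0.069 to 0.14 for TCP1, -0.30 to 0.0061 for CCT3, -0.23 to 0.030 for CCT4, -0.25 to 0.011 for CCT8, -0.14 to 0.26 for HSPD1 and -0.15 to 0.55 for HSPE1. CCT3 between lines with WA was -0.0036 with no filter, -0.0012 with DESeq2 and -0.028 with library totals. The cause was not tested.

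Over all genes, the block raised the calls from 1973 to 4094 in MM1R and from 1476 to 3399 in MM1S (3418 and 2917 with DESeq2). Line calls went from 419 to 811 without the filter and 234 where each library had to hold 10 reads, and with WA from 428 to 819 and 222. Single leave-outs gave 950 to 2396 calls in MM1R and 726 to 1621 in MM1S. The interaction gave 11 calls without the filter and 6 with DESeq2 and the block. HSPE1 in MM1S passed the edgeR test with no filter (log2 fold change 1.00, adjusted p 3.53e-09), against 1.03 and 0.0702 with the filter. The far smaller adjusted p thus came with nearly the same fold change. CCT4 in MM1R passed where each library had to hold 10 reads (adjusted p 0.041). With 3 cultures a group, TMM scaling and the filter by filterByExpr, the smallest log2 fold change of a member that edgeR called without the block was 0.45. Other filters gave calls at smaller values, such as 0.40 for this call of CCT4.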
